A study of Mus musculus with 4 samples.

Results

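Genes of Paneth cells and antimicrobial defence, namely Defa31, Lyz1, Ang4, Mmp7, Reg3b, Reg3g, Itln1 and Pla2g2a, were followed in IgA-positive cells of the mouse small intestine. They were chosen by gene symbol in the annotation of the array, which gave 12 probe sets of 8 genes, out of 45037 probe sets and 18193 singly named genes. RNA of 4 samples was hybridised to 1 Affymetrix array each: 2 samples of CD11b+ IgA+ cells and 2 of CD11b- IgA+ cells. All were primary cells, taken without treatment from the intestine of female Balb/c mice of 9 weeks, and the titles mark all of them as WT, wild type. CD11b is a myeloid integrin chain, and IgA is the main antibody of mucosal secretions. Labelling differed within a fraction: 1 sample went through the One-Cycle kit, starting at 1 µg of RNA, and 1 through the 3' IVT Express kit, starting at 0.1 µg, so the fractions can be compared within each kit. The labels state neither how many animals gave each sample nor whether the samples of a fraction came from separate sorts, so the spread behind every p-value may be technical.

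Paneth cells sit at the base of the small intestinal crypts and release granules with antimicrobial proteins into the gut lumen. Their products fall into several kinds: alpha-defensins, which permeabilise bacterial membranes, the protease that activates them, enzymes that break bacterial cell walls, lipids or RNA, and lectins that bind bacterial surfaces. The Reg3 lectins are also made by enterocytes, where signals from the microbiota induce them.

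The RNA of all 4 samples carried the plasma cell genes that IgA+ cells should express. All 10 plasma cell markers measured passed the signal filter, and Igha, the IgA heavy chain, had quantile-normalized signals of 11703 and 11010 in the CD11b+ arrays, against 12633 and 11703 in the CD11b- arrays (One-Cycle first, as in every pair of values below). Itgam, the gene of CD11b, had 189 and 109 in the CD11b+ arrays, against 28.3 and 15.8 in the CD11b- arrays. The deposited signals were not on a common scale: the 2% trimmed mean of an array was 73.8 and 90.3 in the CD11b+ arrays, against 48.6 and 70.05 in the CD11b- arrays. All signals below are therefore quantile-normalized unless called deposited. The 3' to 5' signal ratio of the beta-actin controls is higher where RNA is degraded. It stood at 1.43 and 1.61 in the CD11b+ arrays, against 1.90 and 1.84 in the CD11b- arrays. This ratio moved with the fraction, and its part in the differences below was not tested.

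The results turn on 2 pairs of related genes and on 1 defensin, so the 200 bases before the annotated start of each are shown, 5′ to 3′ (RefSeq, build GRCm38.p6, which is of C57BL/6J and not of Balb/c mice). A start was listed for 7 of the 8 members; that of Pla2g2a was not. Capitals mark matches, on either strand, to TTCNNNGAA, the core bound by STAT factors, or to CTTTGAT, the core bound by TCF factors of the Wnt pathway. Reg3b and Reg3g lie near each other on chromosome 6 and code for related lectins. The windows shown are chr6:78370685-78370884, plus strand, for Reg3b, chr6:78468875-78469074, minus strand, for Reg3g, and chr8:21191373-21191572, plus strand, for Defa31.
Reg3b: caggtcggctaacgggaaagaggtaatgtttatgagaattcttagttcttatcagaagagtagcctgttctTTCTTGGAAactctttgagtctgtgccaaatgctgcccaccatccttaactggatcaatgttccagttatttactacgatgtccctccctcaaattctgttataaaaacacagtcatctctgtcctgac
Reg3g: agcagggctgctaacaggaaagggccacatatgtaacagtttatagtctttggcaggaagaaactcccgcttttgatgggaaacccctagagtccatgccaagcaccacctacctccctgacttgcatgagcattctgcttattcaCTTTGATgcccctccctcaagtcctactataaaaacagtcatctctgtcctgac
Defa31: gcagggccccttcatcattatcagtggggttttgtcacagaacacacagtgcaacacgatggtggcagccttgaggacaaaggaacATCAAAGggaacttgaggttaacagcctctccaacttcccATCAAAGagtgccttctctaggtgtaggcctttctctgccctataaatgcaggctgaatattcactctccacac
The Reg3 windows aligned with 67.5% identical columns. That of Reg3b held 1 match to the STAT core and that of Reg3g 1 match to the TCF core, which the other lacked. The Defa31 window held the TCF core 2 times. Over the 250 bases before each of 32817 annotated starts, 7.01% held the STAT core and 3.21% the TCF core. A match is a stretch of letters, not a shown binding site.

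The lysozyme genes Lyz1 (chr10:117292869-117293068, minus strand) and Lyz2 (chr10:117282273-117282472, minus strand) are neighbours on chromosome 10 and are shown because Lyz1 probe sets may also read Lyz2 transcript.
Lyz1: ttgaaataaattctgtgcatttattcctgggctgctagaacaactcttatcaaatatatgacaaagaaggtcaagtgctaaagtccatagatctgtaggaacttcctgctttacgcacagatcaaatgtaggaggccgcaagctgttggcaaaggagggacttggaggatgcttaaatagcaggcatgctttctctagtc
Lyz2: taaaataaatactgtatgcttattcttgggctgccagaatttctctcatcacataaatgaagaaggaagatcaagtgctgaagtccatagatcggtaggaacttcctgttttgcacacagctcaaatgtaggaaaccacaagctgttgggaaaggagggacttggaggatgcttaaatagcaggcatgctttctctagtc
These windows aligned with 85.6% identical columns and held neither core. Of the other members, Ang4 held 1 match to the STAT core in its 250 bases, and Mmp7 and Itln1 held none to either.

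Most of the Paneth cell and antimicrobial genes had lower signals in the CD11b+ fraction, and Reg3g did not. Of the 12 probe sets, 11 were lower in the CD11b+ array of both kits and 1, for Reg3g, went opposite ways; over all 27022 probe sets tested, 28.8% were lower with both kits and 39.2% went opposite ways. By gene, 7 of 8 were lower with both kits, against 30.5% of genes. In 8 of the 12 probe sets both CD11b+ arrays lay below both CD11b- arrays and in 0 above them. These sets are of Defa31, Lyz1, Mmp7, Reg3b and Itln1 only, since Lyz1 and Reg3b each have more than 1 among them. Of all probe sets 15.8% lay apart in that direction and 33.7% in either. One weak Lyz1 set passed the signal filter only through its CD11b- arrays and so had to be lower; without it the counts were 10 of 11 lower with both kits and 7 of 11 apart. The median log2 difference over the 8 genes, by the brightest probe set of each, was -0.99, with -0.69 in the One-Cycle pair and -1.19 in the 3' IVT Express pair, beside 0.0025 over 12650 genes. That median was -0.47 without the CD11b+ array of the 3' IVT Express kit and -0.56 on the signals as deposited. Leaving out 1 array, here and below, was done without a kit term. The fractions then hold unequal kits, so such shifts mix the array left out with the kit. All 12 probe sets passed the filter on low signals, which required a mean of 10.6 over the 4 arrays. In bulk samples of this kind, fewer cells of a type and less RNA per cell cannot be told apart.

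By limma without a kit term, 0 probe sets passed an adjusted p under 0.05, either among the 12 or among all 27022 (0% called, smallest adjusted p = 0.169); at an unadjusted p under 0.05 the counts were 6 of 12 and 1403 of 27022 (5.19%). With the labelling kit as a block, 7 of the 12 passed, all of them lower in CD11b+, against 2.67% of all probe sets called in that direction, 2.46% called higher and 5.13% in all. By gene these were 5 of 8, namely Defa31, Lyz1, Reg3b, Itln1 and Pla2g2a, against 3.38% of genes called lower and 2.79% called higher. The blocked fit has 1 residual degree of freedom per probe set and borrows its spread from all others, so its p-values lean on the assumption that these probe sets vary like the rest. Both adjusted p-values are given below, and with 2 arrays a fraction the smallest p of an exact permutation test is 0.333.

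**Figure D1:**
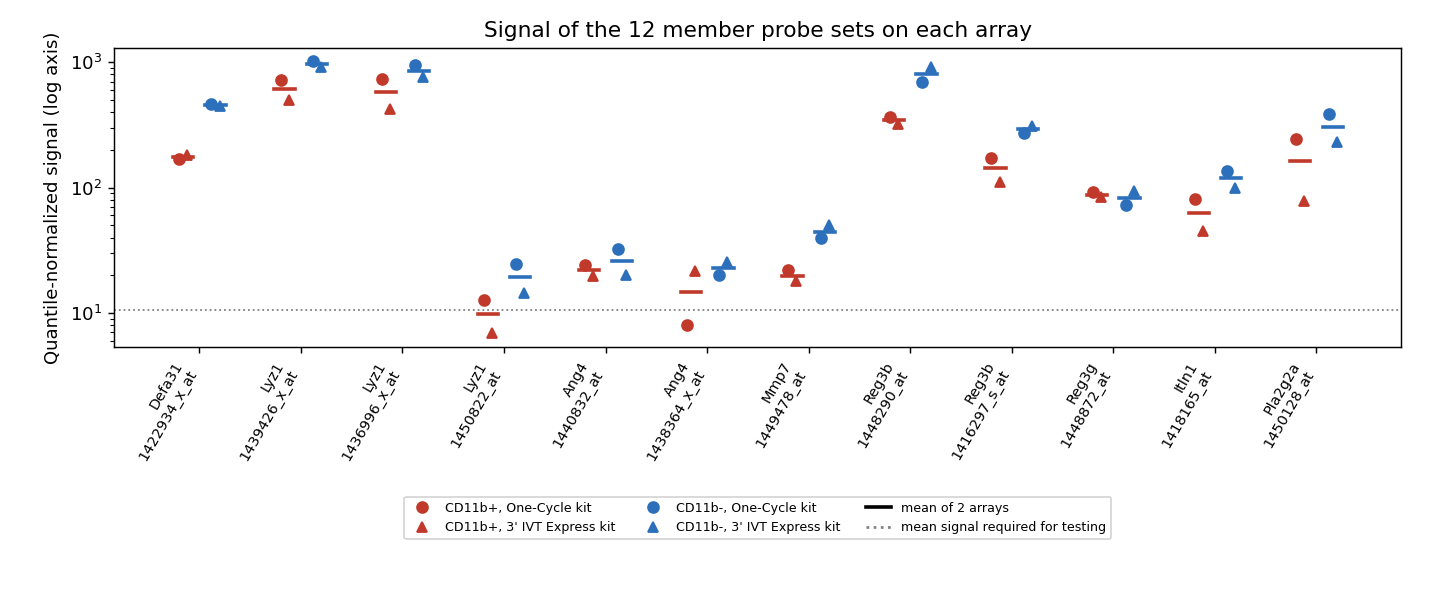
Quantile-normalized signal (log axis) of the 12 probe sets on each of the 4 arrays, CD11b+ in red and CD11b- in blue, circles for the One-Cycle kit and triangles for the 3' IVT Express kit, bars for the mean of 2 arrays. For 8 of the 12 probe sets both CD11b+ arrays lie below both CD11b- arrays; those of Ang4, Reg3g and Pla2g2a overlap.

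Defa31, an alpha-defensin of the cryptdin-related group, had the largest mean difference over both kits of the 12 probe sets, though not in the 3' IVT Express pair alone. Its log2 difference was -1.45 in the One-Cycle pair and -1.28 in the 3' IVT Express pair, where Pla2g2a, both Reg3b sets and Mmp7 differed by more. Its probe set, which ends in _x_at, had signals of 169 and 183 in the CD11b+ arrays, against 468 and 448 in the CD11b- arrays. On these quantile-normalized signals the arrays of a fraction differed little and the fractions lay far apart. The means were 176 ± 9.64 in CD11b+ and 458 ± 14.0 in CD11b- (SD, n = 2 each), a 2.58-fold lower signal (log2 difference -1.37, SE 0.21 by limma, adjusted p = 0.903 without and 4.36e-06 with the kit block). As deposited, the arrays of a fraction lay further from each other, at 176 and 236 in CD11b+, against 298 and 450 in CD11b-. The ending _x_at marks a probe set whose probes may also match related transcripts. The alpha-defensins are a family of near-identical gene copies, so the signal cannot be assigned to Defa31 alone. Another _x_at set, which the annotation ties to several alpha-defensin genes and which was chosen after values were seen, had 539 and 364 in the CD11b+ arrays, against 830.5 and 785 in the CD11b- arrays. Its log2 difference was -0.86 (adjusted p = 0.903 without and 0.00021 with the block). A further set tied to several alpha-defensins had signals between 0.584 and 1.82 on all arrays, below the filter.

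Mmp7, matrilysin, is the protease that cuts mouse pro-alpha-defensins into their active form. Its single probe set had 21.9 and 17.9 in the CD11b+ arrays, against 39.3 and 50.02 in the CD11b- arrays, with no overlap. The log2 difference was -1.05 (95% interval by the blocked limma fit -1.75 to -0.36), within -0.77 and -1.34 in the kits. It did not pass with the block (adjusted p = 0.0738) or without it (0.903), at signals near the low end of those tested.

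Lyz1 encodes the lysozyme of Paneth cells, which cleaves bacterial peptidoglycan, and its neighbour Lyz2 the closely related lysozyme of macrophages. The brightest of its 3 probe sets had 721 and 502 in the CD11b+ arrays, against 1016 and 913 in the CD11b- arrays. The second had 733 and 424 in the CD11b+ arrays, against 950.3 and 767 in the CD11b- arrays. In both sets the fractions did not overlap, and the CD11b+ array of the 3' IVT Express kit was the lowest. Their log2 differences were -0.68 and -0.61, both past the threshold with the block (adjusted p = 0.000999 and 0.00435) and not without it (0.903 and 0.968). Both carry the ending _x_at. The third set of Lyz1, which ends in plain _at, had far weaker signals of 12.6 and 6.90 in the CD11b+ arrays, against 24.5 and 14.4 in the CD11b- arrays. Its CD11b+ mean of 9.77 lay below the signal filter, which the set passed through the CD11b- arrays. Its log2 difference was -0.82, and -0.81 and -0.82 within the kits, but at this signal the blocked interval ran from -1.95 to 0.32 (adjusted p = 0.497).

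On quantile-normalized signals, Lyz2 went the other way from Lyz1 with both kits. It had 219 and 98.001 in the CD11b+ arrays, against 136 and 76.2 in the CD11b- arrays, a log2 difference of 0.68 and 0.35 within the kits (adjusted p = 0.985 without and 0.131 with the block). On the deposited signals of the One-Cycle pair both genes were higher in CD11b+, Lyz2 by 1.24 and the _x_at sets of Lyz1 by 0.22 and 0.33. The difference for Lyz1 minus that for Lyz2 was -1.17 and -1.21 by the first Lyz1 set and -1.05 and -1.20 by the second. The third set, which had to be lower to pass the filter, is not used here. Over the 4 arrays the gap did not pass an exact permutation test (two-sided p = 0.333 for each set, the smallest that 2 arrays against 2 allow). The part of Lyz2 transcript in the signal of the _x_at sets was not tested.

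Ang4, angiogenin 4, a ribonuclease of Paneth cell granules with bactericidal activity, did not differ beyond the spread of the arrays. Its plain _at set had 24.1 and 19.8 in the CD11b+ arrays, against 32.5 and 19.9 in the CD11b- arrays. Its _x_at set had 8.01 and 21.7 in the CD11b+ arrays, against 20.2 and 25.7 in the CD11b- arrays. The fractions overlapped in both sets. The blocked 95% intervals of the log2 difference ran from -0.98 to 0.59 and from -1.61 to 0.32, so these weak signals leave room for a difference as large as that of Defa31 by the second set.

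Pla2g2a encodes a secreted phospholipase A2 that attacks bacterial membrane lipids. It is annotated as a transcribed pseudogene in the GRCm38.p6 assembly, which is of the C57BL/6J strain, where the gene is known to be disrupted, while Balb/c mice are known to carry an intact copy. Its probe set had 246 and 78.0 in the CD11b+ arrays, against 383 and 231 in the CD11b- arrays. The fractions overlapped, with the CD11b+ array of the One-Cycle kit above the CD11b- array of the 3' IVT Express kit, and within each kit the CD11b+ array was the lower. The log2 differences were -0.64 and -1.53 within the kits, with a mean of -1.08 (adjusted p = 0.974 without and 0.000875 with the block). In fits without a kit term this mean was -0.27 without the CD11b+ array of the 3' IVT Express kit and -1.89 without that of the One-Cycle kit. It was -0.72 without the CD11b- array of the One-Cycle kit. The probe set was brighter with the One-Cycle kit in both fractions. With 1 array left out the fractions hold unequal kits, so these shifts mix the array left out with the kit.

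Of the lectins, Reg3b had 367 and 321 in the CD11b+ arrays by its plain _at set, against 695 and 924.5 in the CD11b- arrays. By its _s_at set it had 173 and 111 in the CD11b+ arrays, against 275 and 313 in the CD11b- arrays. Probes of a set ending in _s_at may also match related transcripts, and their part in this signal was not tested. The fractions did not overlap in either set, and both gave the wider gap with the 3' IVT Express kit. The means of the first set were 344 ± 32.1 in CD11b+ and 810 ± 162 in CD11b- (SD, n = 2 each), a 2.32-fold lower signal (log2 difference -1.22, adjusted p = 0.903 without and 1.01e-05 with the block). The second set gave -1.06 (adjusted p = 0.000801 with the block).

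Reg3g, the neighbouring lectin that binds peptidoglycan of Gram-positive bacteria, was, on quantile-normalized signals, the only one of the 8 genes not lower with both kits. Ang4 counted as lower in the 3' IVT Express pair by only -0.0060, and there its plain _at set was higher in CD11b+ on the deposited signals, at 0.12, and with median centring, at 0.017. Reg3g had 92.2 and 83.9 in the CD11b+ arrays, against 72.4 and 94.4 in the CD11b- arrays, so its fractions overlapped. The means were 88.0 ± 5.85 in CD11b+ and 83.4 ± 15.6 in CD11b- (SD, n = 2 each), a log2 difference of 0.09 (blocked 95% interval -0.36 to 0.53, adjusted p = 0.994 without and 0.898 with the block). That interval does not reach the differences of the Reg3b sets. Within an array pair, the Reg3b difference minus the Reg3g difference was -1.25 and -1.35 by the first Reg3b set, and -0.998 and -1.30 by the second. Over the 4 arrays this gap had a two-sided exact permutation p of 0.333 by either set, the smallest that 2 arrays against 2 allow.

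Itln1, intelectin 1, a lectin of Paneth and goblet cells that recognises microbial sugars, had 80.6 and 45.4 in the CD11b+ arrays, against 137 and 100.3 in the CD11b- arrays, with no overlap. The log2 difference was -0.92, and -0.74 and -1.09 within the kits (adjusted p = 0.947 without and 0.0114 with the block). It was -0.52 without the CD11b+ array of the 3' IVT Express kit. Leaving out that array also moved the Lyz1 sets, to -0.42 for the first and -0.22 for the second; without the CD11b+ array of the One-Cycle kit the second was -1.003. The third Lyz1 set stood at -0.48 without the CD11b+ array of the 3' IVT Express kit and at -0.49 without the CD11b- array of the One-Cycle kit. The _x_at set of Ang4 ranged from -1.23, without the CD11b+ array of the 3' IVT Express kit, to -0.064, without that of the One-Cycle kit. Defa31, Mmp7 and both Reg3b sets moved by less than 1.5 times whichever array was left out.

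**Figure D2:**
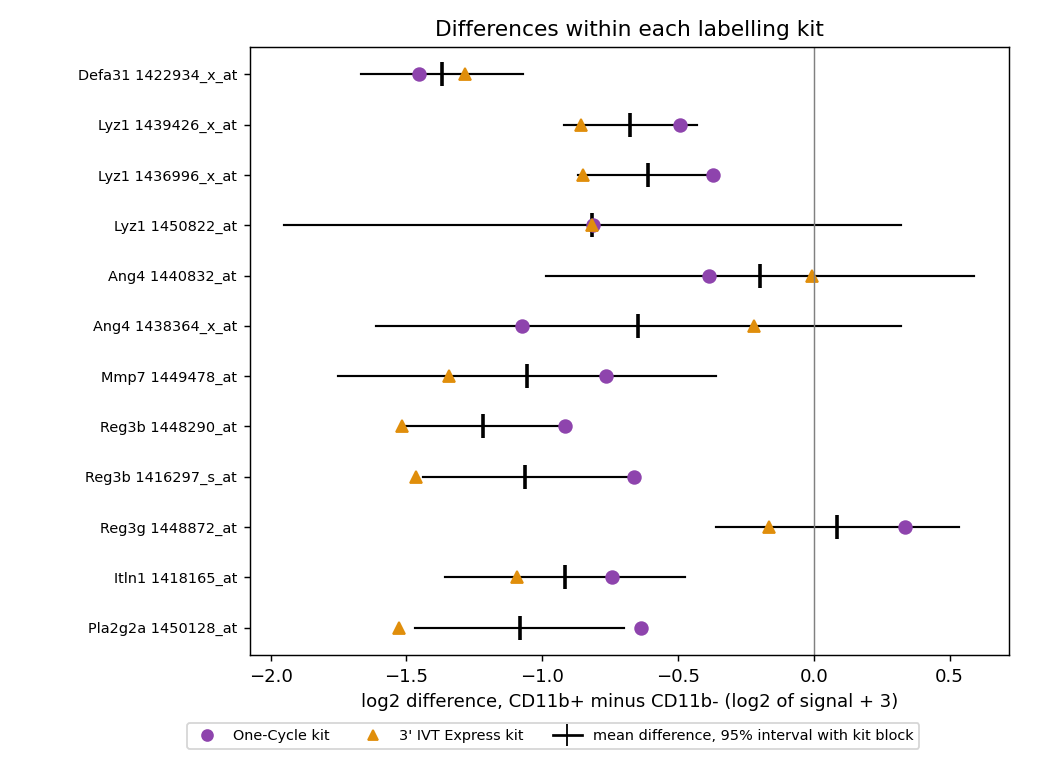
Log2 difference, CD11b+ minus CD11b-, of each probe set in the One-Cycle pair (purple circles) and the 3' IVT Express pair (orange triangles), with the mean (tick) and the 95% interval of the limma fit with kit as a block (line). Defa31 and the Reg3b sets lie well below 0 with both kits, Reg3g lies at 0.34 and -0.16, and the weak Ang4 sets and the third Lyz1 set have intervals across 0.

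How low the members stood depended on the scaling between arrays. On the signals as deposited the median of all probe sets was 0.51 higher in CD11b+ (log2) in the One-Cycle pair and 0.30 higher in the 3' IVT Express pair, and 8 and 10 of the 12 probe sets were then lower in CD11b+. In the One-Cycle pair both _x_at sets of Lyz1, at 0.22 and 0.33, Pla2g2a, at 0.032, and Reg3g, at 0.84, were then higher in CD11b+. Relative to the median of all probe sets, 11 of 12 sets were lower in the One-Cycle pair under each of the 5 scalings tried. In the 3' IVT Express pair 12 of 12 were. Subtracting that median removes a shift common to an array. The deposited, median-centred and trimmed-mean signals differ by little else, so their likeness here was fixed in advance. With the block, 7 of the 12 were called lower with a common trimmed mean, against 2.14% of all probe sets, and 7 with cyclic loess, against 3.45%. With median centring 6 were, against 1.62%, and on the deposited signals 4, against 0.799%. Defa31, Reg3b and Pla2g2a passed with the block under all 5 scalings. Their adjusted p reached up to 0.00145, 0.0449 and 0.0336, in that order. On the deposited signals the Reg3b sets differed by -0.20 and -0.0082 in the One-Cycle pair, against -1.10 and -1.15 in the 3' IVT Express pair. Pla2g2a differed by 0.032 and -1.25. On that scaling the calls of Pla2g2a and of the _s_at set of Reg3b thus lean on the 3' IVT Express pair. The Lyz1 sets did not pass on the deposited signals (adjusted p = 0.740 and 0.884) or with median centring (0.124 and 0.253), and Itln1 did not on the deposited signals (0.132). Mmp7 passed with median centring alone (adjusted p = 0.0461).

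**Figure D3:**
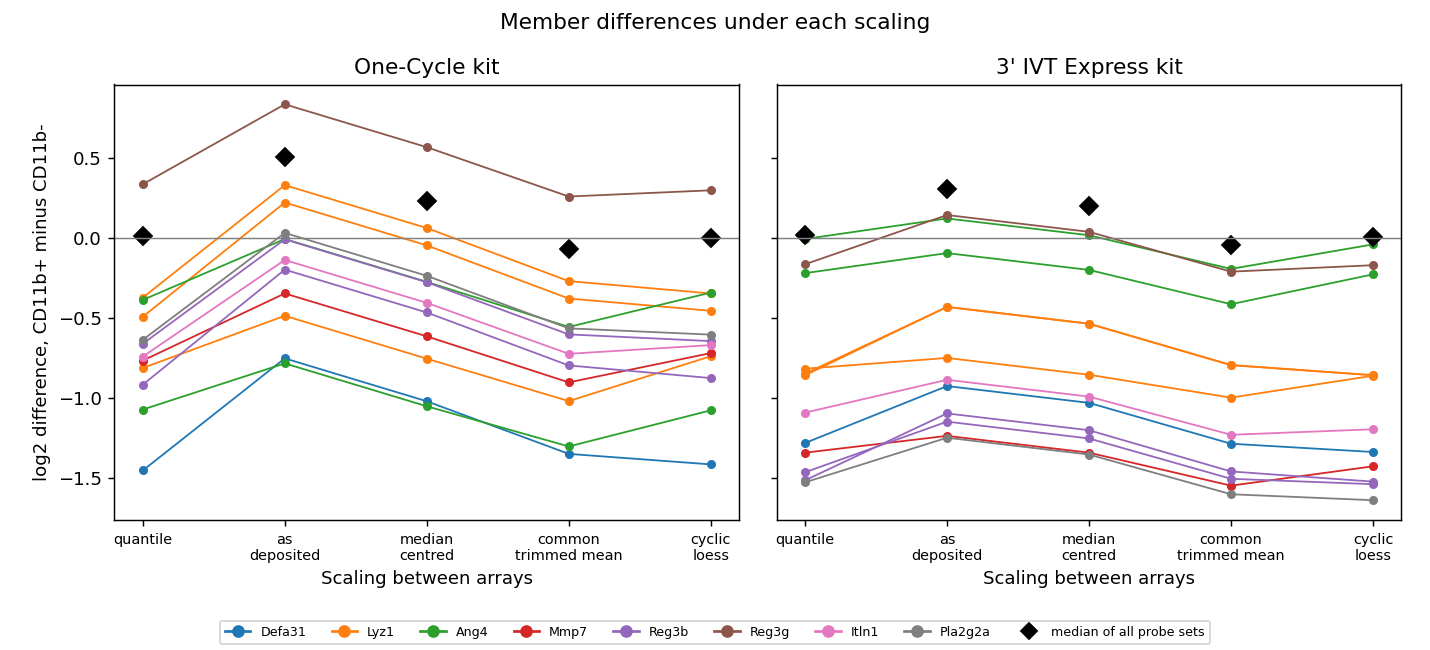
Log2 difference, CD11b+ minus CD11b-, of the 12 probe sets under 5 scalings between arrays, in each kit, with black diamonds for the median of all probe sets. On the deposited signals all values shift up with that median, and every set except Reg3g in the One-Cycle pair stays below it.

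Other genes of Paneth cells gave a mixed picture. Of 7 genes measured from a list of further alpha-defensins and Paneth cell products, 6 passed the signal filter, 3 were lower with both kits and 0 higher. Their median was -0.39, but the kits pointed opposite ways, with 0.098 in the One-Cycle pair and -0.43 in the 3' IVT Express pair. With the block 1 passed, Defa39, another alpha-defensin (275 and 131 in CD11b+, against 390.4 and 226 in CD11b-, log2 difference -0.64, adjusted p = 0.0144). Clps, pancreatic colipase, which mouse Paneth cells also express, differed by 0.35 and -1.34 within the kits, Mptx1 by -0.16 and -0.41 and Nupr1 by -1.09 and -0.18. Of 18 genes of Paneth cell fate and maintenance, 14 passed the filter and 2 were lower with the block, with a median of -0.21. The 4 brightest of them, Xbp1, Cd24a, Ctnnb1 and Bhlha15, had differences of -0.04, 0.12, -0.37 and -0.12, and plasma cells use Xbp1 and Bhlha15 too. Of 10 genes of the interleukin-22 and MyD88 route that induces Reg3 lectins, 7 passed the filter, 2 were lower and 1 higher with the block, with a median of 0.10. Its brightest members Il10rb, Jak1, Stat3 and Tyk2 differed by -0.55, 0.10, -0.49 and -0.48.

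Of 24 other antimicrobial genes measured, 12 passed the filter, 8 were lower with both kits and 0 higher, and 4 passed the block fit as lower. Their median was -0.60. Slpi, a leukocyte protease inhibitor, stood at -1.39, Zg16, a lectin of goblet cell mucus, at -1.31, and Lypd8, which keeps flagellated bacteria off the colonic epithelium, at -1.47 (adjusted p = 2.47e-09, 4.94e-07 and 2.03e-05 with the block). Reg1, a regenerating-family lectin, differed by -0.60 (adjusted p = 0.110 with the block). Of 12 neutrophil markers 6 passed the filter and 0 were called. Their median was -0.51, with -0.88 and -0.27 within the kits, and 4 were lower and 1 higher with both kits.

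Structural and goblet cell markers of the gut epithelium were lower in CD11b+ too, while most enterocyte markers did not pass the test. Of 13 epithelial structure genes, 13 passed the filter, 13 were lower with both kits and 12 passed with the block, with a median of -1.27, and -0.93 and -1.59 within the kits. Krt8, Epcam, Pigr and Lgals4 differed by -1.50, -0.67, -1.27 and -1.29. The summed signal of this list was 2318 and 1509 in the CD11b+ arrays, against 4414 and 4427 in the CD11b- arrays. Of 13 goblet cell markers measured, 11 passed the filter and 8 were lower with the block (median -1.31, summed signals 1751 and 929 in CD11b+, against 4396 and 2592 in CD11b-). Tff3 differed by -1.74, Fcgbp by -1.31 and Spink4 by -1.58, while Retnlb and Spdef lay below the filter. Of 12 enterocyte markers, 3 were lower with the block, 8 were lower with both kits and the median was -0.41, with sums of 1982 and 1372 in CD11b+, against 2301 and 2525 in CD11b-. Fabp1, Fabp2, Apoa1 and Apoa4 differed by -0.81, -0.40, -0.10 and -0.42. Crypt stem cell markers had a median of -0.72 over 4 genes above the filter, of 5 measured, with 2 lower with the block, among them Olfm4 at -1.69. Lgr5, which enters that median, had a mean of 8.30 in CD11b+ and 14.7 in CD11b-. It passed the filter only through its CD11b- arrays and so had to be lower. The part of such epithelial RNA in the members' differences was not tested.

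Macrophage and monocyte markers did not move with the members. Of 13 measured, 11 passed the filter, 0 were called with the block, 5 were higher and 2 lower with both kits, and the median was 0.45, with 0.71 and 0.0017 within the kits. Their summed signal was 688 and 455 in the CD11b+ arrays, against 484 and 391 in the CD11b- arrays. Csf1r, Cd68 and Cd14 differed by -0.11, 0.45 and 0.73. C1qa, in that median, had 49.6 and 1.25 in the CD11b+ arrays and a mean of 2.54 in CD11b-. It passed the filter through 1 CD11b+ array alone. Plasma cell markers had a median of -0.08, with sums of 51902 and 51999 in the CD11b+ arrays, against 54489 and 55330 in the CD11b- arrays. Of 10 markers, 8 were lower and 1 higher with both kits, beside 30.5% of all genes lower with both. With the block 1 of 10 was called, as lower. Quantile normalization sets the brightest signals, such as that of Igha, by rank alone, so the likeness of these sums was partly imposed.

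**Figure D4:**
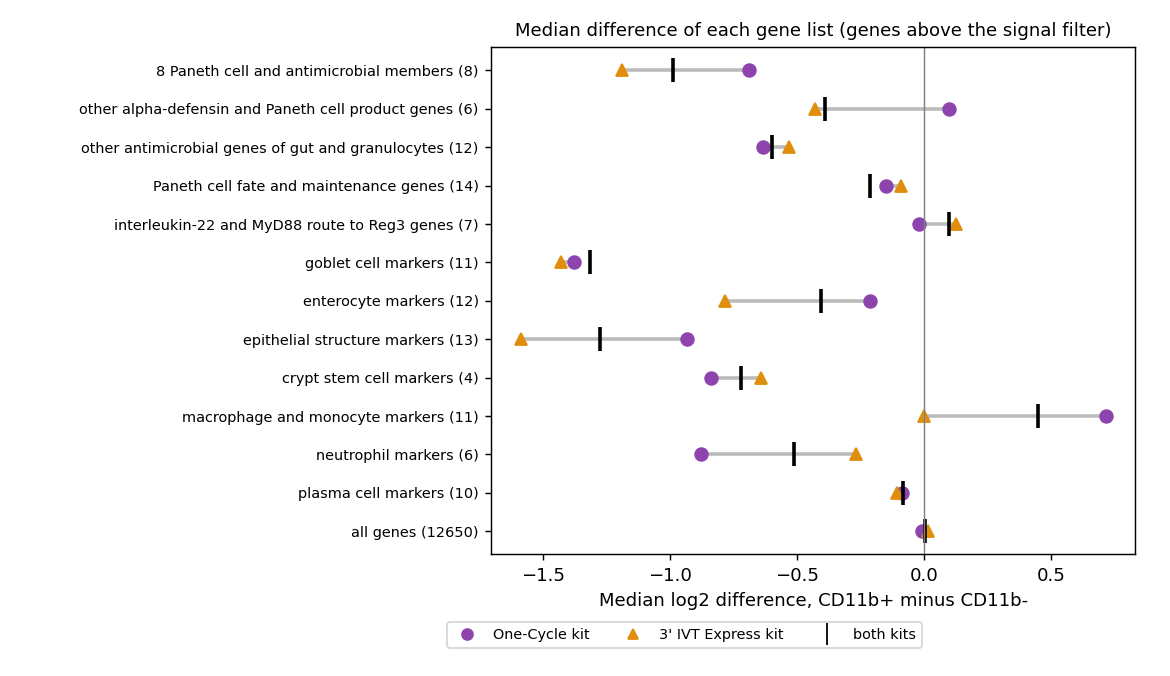
Median log2 difference, CD11b+ minus CD11b-, of each gene list in the One-Cycle pair (circles), the 3' IVT Express pair (triangles) and both (ticks), with the number of genes above the signal filter in brackets. The 8 members, at -0.99, lie between crypt stem cell markers at -0.72 and epithelial structure and goblet cell markers at -1.27 and -1.31. Other antimicrobial genes, neutrophil markers and enterocyte markers stand at -0.60, -0.51 and -0.41.

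Averaged over the 8 genes, log2 signals centred on each gene's own mean were -0.17 and -0.63 in the CD11b+ arrays, against 0.46 and 0.35 in the CD11b- arrays. Among 12642 other genes above the filter, the 5 nearest to this profile over the 4 arrays were Fcgrt, Rhoq, Prkca, Vil1 and Suco, with root mean square distances from 0.0245 to 0.0481 on the log2 scale. Vil1, villin of the brush border, is itself an epithelial marker. With 4 arrays such likeness is a description only.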

How the data were processed

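The authors deposited 1 table of linear intensity values, 1 MAS5 signal per probe set and array. The submitters' processing notes name MAS5 and Affymetrix Expression Console; no version, setting or scaling target is stated in the labels. Of 45101 probe sets, 64 controls were left out; 34945 name 1 gene, 932 several and 9160 are unnamed here. Of the singly named, 34741 were found by gene identifier in the gene table of GRCm38.p6, used for names, neighbours and the RefSeq promoter windows.

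Signals were quantile-normalized, 3 was added before log2, and the 27022 probe sets whose mean signal exceeded the 40th percentile were fitted with limma (version 3.58.1, R version 4.3.3), using moderated 2-sided tests with an intensity trend and Benjamini-Hochberg adjustment over all probe sets. Fold changes are on the log2(signal + 3) scale and understate those of weak genes. The number of arrays limits precision. Replicate numbers follow the order of deposit; the labels tie the arrays of a number to the same labelling kit, and their deviations from the fraction means correlated (r = 0.418 across probe sets), so kit was also fitted as a block (prior of 19.4 degrees of freedom). Tested on simulated data, the unblocked fit recovered few or none of the changes put in, so its lack of calls says little. The blocked fit recovered 51.1% of the 2-fold and 86.9% of the 4-fold changes. Its share of false calls lay above the nominal level, so its adjusted p-values are too small.

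The members and gene lists were chosen with earlier results of these data known. All members and their probe sets are named, and of each list the brightest genes, up to 4; genes are represented by their brightest probe set.

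Alternatives were pseudocounts of 1 and 12, no filter or the 70th percentile, 4 other scalings between arrays (as deposited, median-centred, a common trimmed mean, cyclic loess), other choices of probe set per gene, no intensity trend, the kit block, and leaving out each array in turn. The fits that left out an array had no kit term, so the kits were unequal between the fractions.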

Additional observations from a re-analysis of the deposited data

Results flagged for a closer look

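On quantile-normalized signals, Reg3g was the only member probe set whose difference between the fractions pointed opposite ways in the 2 kits: 0.34 (log2, CD11b+ minus CD11b-) in the One-Cycle pair and -0.16 in the 3' IVT Express pair. The difference between the kits was not tested, since each holds 1 pair of arrays, and 39.2% of all probe sets tested pointed opposite ways.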

How the results depend on the processing

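Of the values of single member probe sets under alternative settings, 200 kept their direction and their side of the threshold, 31 passed it only with the replicate block for labelling kit, and 4 turned direction. These 4 were the plain _at set of Ang4, at 0.058 on the signals as deposited with and without the block and at -0.51 to 0.12 on leaving out 1 array, and Reg3g, at -0.10 to 0.27 on leaving out 1 array; both turned without the CD11b- array of the One-Cycle kit. The median over the member genes was -0.56 on the deposited signals with and without the block (-0.96 relative to all probe sets), and -1.25 to -0.47 on leaving out 1 array, smallest in size without the CD11b+ array of the 3' IVT Express kit. Calls over all probe sets, 0 without the block, were 1387 with it (665 higher and 722 lower), and 0 to 3 on leaving out 1 array. The block combined with another scaling, chosen after seeing the data, gave 6180 calls on the deposited signals (5964 higher and 216 lower), 4325 with median centring (3887 and 438), 1074 with a common trimmed mean and 1703 with cyclic loess. Without the block and with all 4 arrays, no probe set passed under any setting. For values of those settings, keeping their side of the threshold therefore says little. The blocked calls depend on a spread borrowed across probe sets. Shifts on leaving out 1 array, without a kit term, mix that array with the kit. Weak signals of Ang4, Mmp7 and 1 Lyz1 set limit what could be seen, and no setting separates cross-hybridising transcripts within an _x_at or _s_at set.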
